A study of Mus musculus with 18 samples.

Results

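10 genes that differ widely between untreated lungs of 3 inbred mouse strains were followed here in irradiated lungs of the same strains. They are Rpgrip1, Tmem87a, Baiap2l1, Efhd2, Pik3ap1, Nptx1, Sox11, Zfp945, Exosc1 and Pdxdc1, and they were chosen by their signals in untreated lungs, which differed between strains. A probe set, the group of short probes that reads 1 transcript on the array, was taken where its annotation named 1 of these genes alone, which gave 29 of the 45101 probe sets on the array. Of these 29, 25 passed the filter on low signals, against 25726 of all probe sets, and 4 stayed out of all tests, 3 of Rpgrip1 and 1 of Zfp945. All 10 genes kept at least 1 probe set, among 12405 genes with a kept probe set.

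Lung RNA had been hybridised to 18 single-colour oligonucleotide arrays, 3 in each of 6 groups. Irradiated mice of the strains C57BL6/J, C3H/HeJ and A/J were exposed at 8 weeks of age to a caesium source, with 18 Gy over the thorax and a shield over the body that let 3% of the beam through. The right lung was taken when a mouse was moribund, at 28 to 30 weeks in C57BL6/J, 20 to 22 weeks in C3H/HeJ and 30 to 32 weeks of age in A/J. Untreated mice of each strain were 15 to 26 weeks old. Irradiation, age, weight loss and moribund state therefore go together within a strain and cannot be told apart. Between irradiated strains, time after irradiation also differed, at 20 to 22 weeks in C57BL6/J, 12 to 14 in C3H/HeJ and 22 to 24 in A/J. In the irradiated strain differences below, strain cannot be told apart from age and time after irradiation. The labels speak of 3 moribund mice per strain but only of 3 samples from control mice, so spread among the controls may be technical. All samples are whole lung, which holds epithelium, vessels, connective tissue and blood cells, and fewer cells of a type and less RNA per cell cannot be told apart.

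Inbred strains differ in the sequence of their genomes, in the regulation of genes and in gene copies that are lost or duplicated. A probe on an array was designed on 1 reference sequence, so a strain difference in that sequence can weaken binding at 1 probe set and leave another probe set of the same gene as it was. Every probe set is therefore given below. Probe sequences were not used, and whether sequence differences under the probes moved these signals was not tested.

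All values below are log2 signals after quantile normalization, which gives every array the same distribution, and a difference of 1 is a 2-fold change on that scale. The median of all values was 4.98, and levels near or under it can be background, since the files used hold no detection call. The untreated strain differences chose the genes and are given without a test. The irradiated strain differences were tested with limma, with Benjamini-Hochberg adjustment over all 25726 probe sets, and a difference is called where the adjusted p is under 0.05.

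The signal of the arrays varied, with a trimmed mean of 71.6 to 176 deposited units in irradiated arrays and 46.3 to 92.3 in untreated arrays. The 8 lung markers, surfactant proteins and other airway and alveolar genes, averaged 11.26 to 11.53 in irradiated arrays and 11.41 to 11.51 in untreated arrays. The third irradiated C3H/HeJ array stood apart. On 200 probe sets that separate untreated C3H/HeJ from untreated A/J, with A/J at 0 and C3H/HeJ at 1, it lay at 0.63, while the other irradiated C3H/HeJ arrays lay at 0.95 and 0.93 and the irradiated A/J arrays at 0.09 to 0.10. At 120 of the 200 probe sets it lay between 0.2 and 0.8, against 58 and 56 in the other arrays of its group. Values without it are given beside the called member differences that it moved by more than 0.2 or whose call it decided. Irradiated A/J arrays had 5' to 3' ratios of actin, a measure of RNA integrity, of 0.413, 0.551 and 0.528, against 0.730 to 0.742 in untreated A/J arrays. The same ratio of Gapdh was 0.294, 0.876 and 1.03 in irradiated A/J arrays, against 1.14 to 1.30 in untreated A/J arrays.

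**Figure D1:**
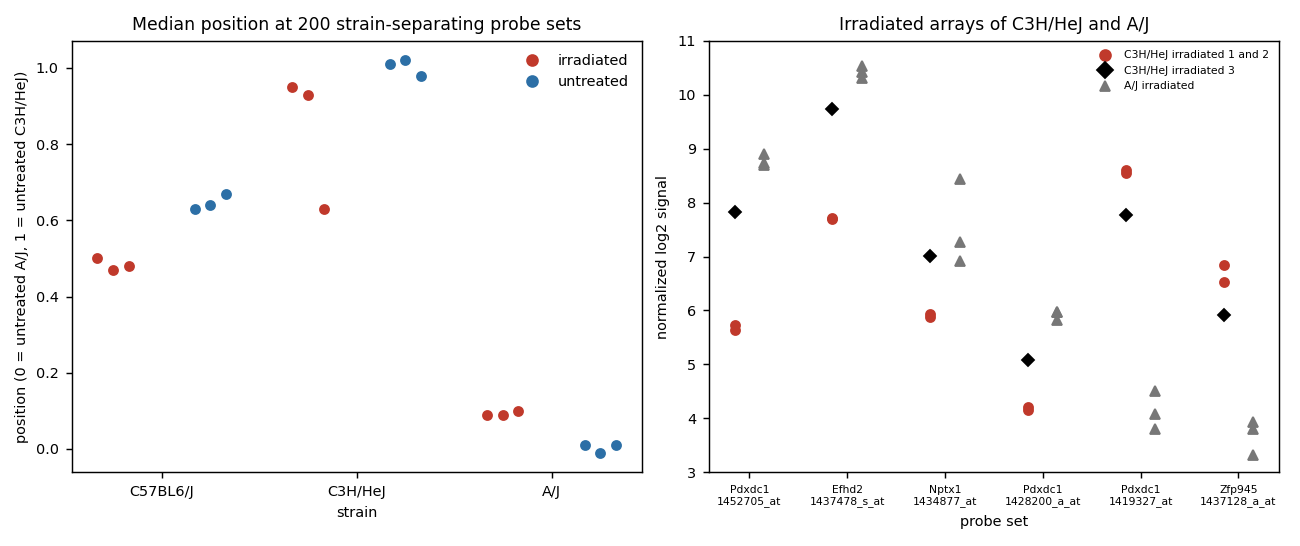
Left, median position of each array (y axis, 0 at untreated A/J and 1 at untreated C3H/HeJ) over 200 probe sets that separate those untreated strains, by strain (x axis), in irradiated (red) and untreated (blue) arrays. Right, normalized log2 signal (y axis) in irradiated arrays at 6 probe sets (x axis): circles and the diamond are the 3 C3H/HeJ arrays and triangles the 3 A/J arrays, and the diamond, the third C3H/HeJ array, lies between the other C3H/HeJ arrays and the A/J mean at each. The 6 were chosen after their values were seen, as those where it lay farthest from the other C3H/HeJ arrays.

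Between irradiated C57BL6/J and irradiated A/J lungs, 11 of the 25 member probe sets were called, 4 higher and 7 lower, where 23.6% of all probe sets were called, 12.7% higher and 10.9% lower. Between irradiated C57BL6/J and irradiated C3H/HeJ, 15 were called, 8 higher and 7 lower, where 15.9% of all were called, 8.40% higher and 7.52% lower. Between irradiated C3H/HeJ and irradiated A/J, 9 were called, 3 higher and 6 lower, where 12.0% of all were called, 6.68% higher and 5.27% lower. The median size of the difference over members, beside that over all probe sets, was 0.37 and 0.27 for C57BL6/J against A/J, 1.11 and 0.23 for C57BL6/J against C3H/HeJ, and 0.43 and 0.22 for C3H/HeJ against A/J. Of the 75 tests, 35 were called, 31 of these in the direction seen in untreated lungs and 4 in the other direction. Of 41 untreated differences of at least 1, a size chosen after the values were seen, 30 were called in irradiated lungs and 11 were not, 7 of them of Sox11. Those 7 are at probe sets that passed the filter on low signals only through untreated C57BL6/J arrays. Their lack of a call was thus partly set by that filter and is no result about Sox11. Over all probe sets, untreated differences of at least 1 were called in the same direction in 58.9% for C57BL6/J against A/J, 64.4% for C57BL6/J against C3H/HeJ and 50.8% for C3H/HeJ against A/J.

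**Figure D2:**
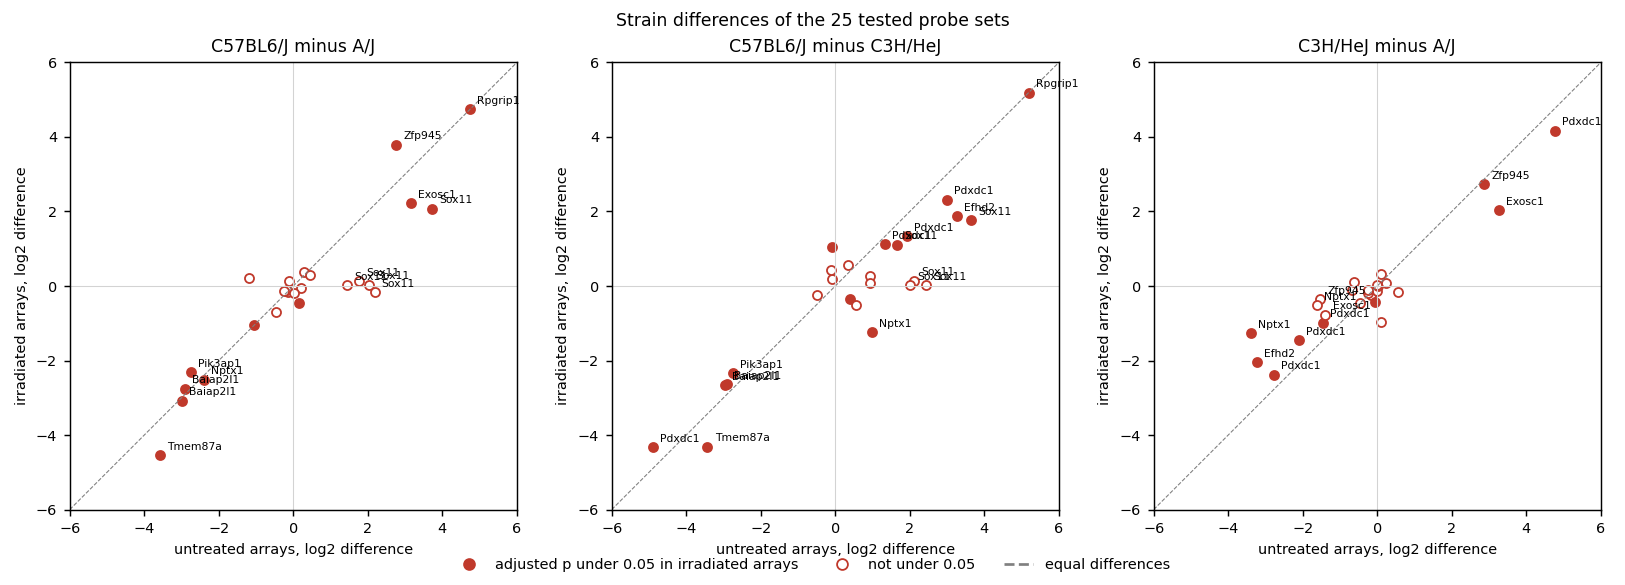
Log2 difference between strains in irradiated arrays (y axis) against untreated arrays (x axis) for the 25 tested probe sets, 1 panel for each pair of strains. Filled points were called in irradiated arrays and the dashed line marks equal differences. In the panel of C57BL6/J minus C3H/HeJ, 3 Sox11 probe sets at 2.12, 2.01 and 2.43 on the x axis lie at 0.14, 0.02 and 0.02 on the y axis. These 3 passed the filter on low signals only through untreated C57BL6/J arrays, which partly sets this position.

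Rpgrip1, a scaffold protein of the photoreceptor connecting cilium, was high in C57BL6/J lungs alone. Its probe set 1421144_at read 9.61, 9.67 and 9.92 in irradiated C57BL6/J arrays, 4.65, 4.24 and 4.73 in irradiated C3H/HeJ arrays and 4.80, 5.14 and 5.05 in irradiated A/J arrays. The C57BL6/J arrays stood well above the rest, and the other strains sat near the median of all values. Irradiated C57BL6/J exceeded irradiated C3H/HeJ by 5.19 ± 0.20 (SE, limma, adjusted p = 1.99e-10) and irradiated A/J by 4.74 ± 0.20 (adjusted p = 3.62e-10). Untreated C57BL6/J arrays read 9.58, 9.70 and 9.82, so that irradiated minus untreated was 0.03. The other 3 probe sets of Rpgrip1 stayed dim, between 2.89 and 4.34 on every array of every strain, and showed no such separation. Markers of ciliated airway cells averaged 7.03 to 7.42 in irradiated C57BL6/J, 6.41 to 6.67 in irradiated C3H/HeJ and 6.93 to 7.48 in irradiated A/J, and their part in the result was not tested.

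Tmem87a, a membrane protein of the Golgi, had the opposite pattern at its only probe set, 1424454_at. It read 3.88, 3.55 and 3.75 in irradiated C57BL6/J arrays, 7.94, 7.92 and 8.25 in irradiated C3H/HeJ arrays and 8.34, 8.13 and 8.32 in irradiated A/J arrays. Irradiated C57BL6/J lay below both other strains without overlap, with differences of -4.31 ± 0.37 from C3H/HeJ (limma, adjusted p = 1.66e-06) and -4.54 ± 0.37 from A/J (adjusted p = 6.60e-07). Untreated C57BL6/J arrays varied, at 5.40, 5.23 and 3.21, all below the untreated arrays of C3H/HeJ and A/J, which ran from 7.89 to 8.31. By the size of the difference among 25726 probe sets, Rpgrip1 ranked 6 and Tmem87a 11 between irradiated C57BL6/J and irradiated C3H/HeJ.

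The 250 bases before the annotated transcription start of 4 of the genes that were set apart in untreated C57BL6/J are shown to place them. Pik3ap1, also set apart there at 1 probe set, is not shown. They come from RefSeq on build GRCm38.p6, which is the C57BL/6J genome, 5′ to 3′ on the gene's strand, and the 4 genes were chosen after their values were seen. Capitals mark matches on either strand to a TATA box, searched as TATAAA, to a CCAAT box, searched as CCAAT, to a GC box, searched as CCGCCC, and to an ETS core, searched as CCGGAAG. The motifs were chosen after the sequences were seen.
Rpgrip1, chr14:52110653-52110902, plus strand: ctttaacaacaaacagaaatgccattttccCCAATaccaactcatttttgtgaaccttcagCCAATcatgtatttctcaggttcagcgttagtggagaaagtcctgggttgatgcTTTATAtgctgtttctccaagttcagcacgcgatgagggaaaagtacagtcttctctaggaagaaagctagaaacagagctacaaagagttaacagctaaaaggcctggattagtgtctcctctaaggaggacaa
Tmem87a, chr2:120404117-120404366, minus strand: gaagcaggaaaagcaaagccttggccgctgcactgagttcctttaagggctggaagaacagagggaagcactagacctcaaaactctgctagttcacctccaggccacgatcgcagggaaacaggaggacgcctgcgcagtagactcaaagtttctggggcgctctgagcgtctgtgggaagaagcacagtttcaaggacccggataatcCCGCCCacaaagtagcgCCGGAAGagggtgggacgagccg
Baiap2l1, chr5:144358113-144358362, minus strand: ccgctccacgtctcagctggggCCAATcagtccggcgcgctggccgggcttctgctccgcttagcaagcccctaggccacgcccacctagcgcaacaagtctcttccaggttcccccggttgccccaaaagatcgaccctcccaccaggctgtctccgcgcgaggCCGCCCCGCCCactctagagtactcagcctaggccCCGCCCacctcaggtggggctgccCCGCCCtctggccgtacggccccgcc
Sox11, chr12:27342719-27342968, minus strand: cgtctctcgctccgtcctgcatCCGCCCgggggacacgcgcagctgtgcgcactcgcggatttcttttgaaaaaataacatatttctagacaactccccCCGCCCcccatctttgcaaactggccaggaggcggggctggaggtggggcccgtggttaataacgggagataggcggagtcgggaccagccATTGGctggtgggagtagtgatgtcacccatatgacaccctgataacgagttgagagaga
Rpgrip1 held 1 TATAAA match, 135 bases before the start, and 2 CCAAT matches. Tmem87a held 1 CCGCCC match and 1 CCGGAAG match. Baiap2l1 held 4 CCGCCC matches, a pair of which overlap, and 1 CCAAT match, and Sox11 held 2 CCGCCC matches and 1 CCAAT match. Over 32851 promoters of the same length, 12.4% held a TATA box by this search, 33.8% a CCAAT box, 32.7% a GC box and 6.9% an ETS core. A match is a run of letters and not a measured site.

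Baiap2l1, which bends membranes and organises actin filaments, was low in C57BL6/J at both of its probe sets. At 1424951_at the signal was 7.34, 7.21 and 7.28 in irradiated C57BL6/J arrays, 9.91, 9.87 and 9.92 in irradiated C3H/HeJ arrays and 9.93, 10.13 and 10.05 in irradiated A/J arrays. At 1451539_at it was 6.46, 6.64 and 6.31 in irradiated C57BL6/J, 9.06, 9.17 and 9.15 in irradiated C3H/HeJ and 9.71, 9.62 and 9.32 in irradiated A/J. The groups did not overlap between C57BL6/J and either other strain at either probe set. Irradiated C57BL6/J minus irradiated C3H/HeJ was -2.63 ± 0.09 and -2.66 ± 0.12, and minus irradiated A/J it was -2.76 ± 0.09 and -3.08 ± 0.12, with limma adjusted p from 3.60e-11 to 8.67e-10. Untreated C57BL6/J read 7.48, 7.42 and 7.49 at 1424951_at, beside 10.25 to 10.43 in untreated C3H/HeJ and 10.34 to 10.43 in untreated A/J. Irradiated minus untreated was thus -0.19 in C57BL6/J, -0.46 in C3H/HeJ and -0.34 in A/J, but without scaling it was -0.12 in C57BL6/J, 0.29 in C3H/HeJ and 0.24 in A/J. Irradiated C3H/HeJ minus irradiated A/J was -0.43 ± 0.12 at 1451539_at (adjusted p = 0.0299), a call that was lost in 8 of 15 alternative settings, among them without the first or the second irradiated array of either strain, and -0.14 ± 0.09 at 1424951_at (adjusted p = 0.369).

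Efhd2, a calcium-binding protein of actin filaments that is abundant in immune cells, was lowest in irradiated C3H/HeJ at 1 of its probe sets and lowest in irradiated C57BL6/J at the other. Probe set 1437478_s_at read 10.50, 10.18 and 10.06 in irradiated C57BL6/J, 7.69, 7.71 and 9.74 in irradiated C3H/HeJ and 10.42, 10.53 and 10.31 in irradiated A/J. The third C3H/HeJ array lay close to the other strains. With it, irradiated C57BL6/J minus irradiated C3H/HeJ was 1.87 ± 0.37 (limma, adjusted p = 0.00286), and without it 2.55 ± 0.17 (adjusted p = 1.45e-07). Irradiated C3H/HeJ minus irradiated A/J was -2.04 ± 0.37 with that array (adjusted p = 0.00285) and -2.72 ± 0.17 without it (adjusted p = 1.00e-07). With only the groups compared in the fit both calls were lost, at adjusted p = 0.0566 against C57BL6/J and 0.0779 against A/J. Untreated arrays averaged 9.98 in C57BL6/J, 6.73 in C3H/HeJ and 9.96 in A/J at 1437478_s_at. Probe set 1431339_a_at read 8.66 to 8.99 in irradiated C57BL6/J, 9.06 to 9.17 in irradiated C3H/HeJ and 9.15 to 9.28 in irradiated A/J. There irradiated C57BL6/J minus irradiated A/J was -0.45 ± 0.11 (adjusted p = 0.00961), while untreated C57BL6/J minus untreated A/J was 0.15, and the call was lost with only the groups compared in the fit (adjusted p = 0.0809). Against irradiated C3H/HeJ it was -0.35 ± 0.11 (adjusted p = 0.046), a call lost in 9 of 15 alternatives, among them without any 1 irradiated C3H/HeJ array (adjusted p = 0.104 without the third) and without the second or the third irradiated C57BL6/J array. In irradiated C3H/HeJ both probe sets stood above every untreated C3H/HeJ array. The means differed by 0.97 at 1431339_a_at and 1.65 at 1437478_s_at, or 0.98 at 1437478_s_at without the third array. Both also stood above every untreated array in irradiated A/J, with means higher by 0.82 at 1431339_a_at and 0.46 at 1437478_s_at. Macrophage markers averaged 8.77 to 9.27 in irradiated C3H/HeJ and 7.91 to 8.07 in untreated C3H/HeJ. In A/J they averaged 8.16 to 9.32 in irradiated and 7.99 to 8.08 in untreated arrays, and their part in the result was not tested.

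Pik3ap1, the adaptor that links B cell and Toll-like receptors to phosphoinositide 3-kinase, was low in C57BL6/J at 1429831_at. It read 5.37, 6.22 and 5.81 in irradiated C57BL6/J arrays, 8.09, 8.06 and 8.27 in irradiated C3H/HeJ arrays and 7.48, 8.29 and 8.56 in irradiated A/J arrays. The C57BL6/J arrays did not overlap with either strain, with differences of -2.34 ± 0.24 from C3H/HeJ (limma, adjusted p = 9.44e-06) and -2.31 ± 0.24 from A/J (adjusted p = 6.70e-06). Untreated arrays averaged 5.51 in C57BL6/J, 8.25 in C3H/HeJ and 8.26 in A/J at this probe set. The second probe set, 1421285_at, ran from 4.47 to 5.80 over all irradiated arrays and was not called in any pair. B cell markers averaged 6.90 to 7.40 in irradiated C57BL6/J, 6.0 to 6.56 in irradiated C3H/HeJ and 6.23 to 6.88 in irradiated A/J, and their part in the result was not tested.

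Nptx1, a secreted pentraxin first known from synapses, was high in A/J. At 1434877_at the signal was 4.53, 5.03 and 5.54 in irradiated C57BL6/J, 5.88, 5.94 and 7.01 in irradiated C3H/HeJ and 8.44, 7.26 and 6.92 in irradiated A/J. Irradiated C57BL6/J lay below irradiated A/J without overlap, at -2.51 ± 0.37 (limma, adjusted p = 1.40e-04). Irradiated C3H/HeJ overlapped with irradiated A/J, at -1.26 ± 0.37 (adjusted p = 0.0347), or -1.63 ± 0.37 without the third C3H/HeJ array (adjusted p = 0.00882), but the call was lost in 6 of 16 alternatives, among them without the first irradiated A/J array or without the first or the second irradiated C3H/HeJ array, with adjusted p up to 0.156. Irradiated C57BL6/J minus irradiated C3H/HeJ was -1.24 ± 0.37 (adjusted p = 0.0304), while in untreated lungs C57BL6/J was higher than C3H/HeJ by 0.99. That call was lost in 5 of 16 alternatives, among them without the third C3H/HeJ array, at -0.87 ± 0.37 (adjusted p = 0.138), and without the first or the second irradiated C57BL6/J array. Irradiated C3H/HeJ exceeded untreated C3H/HeJ, at 4.22, 3.62 and 3.63, by 2.45, or 2.08 without the third array. The other probe set, 1422130_at, ran the same way at lower size, with irradiated C57BL6/J minus irradiated A/J at -1.04 ± 0.26 (adjusted p = 0.00968), a call that was lost without the first irradiated A/J array, the one with the lowest actin ratio, and with only the groups compared in the fit. Of 5 neuronal markers 1 passed the filter, Uchl1, at 5.82 to 6.04 in irradiated C57BL6/J, 4.45 to 4.95 in irradiated C3H/HeJ and 4.56 to 4.68 in irradiated A/J.

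**Figure D3:**
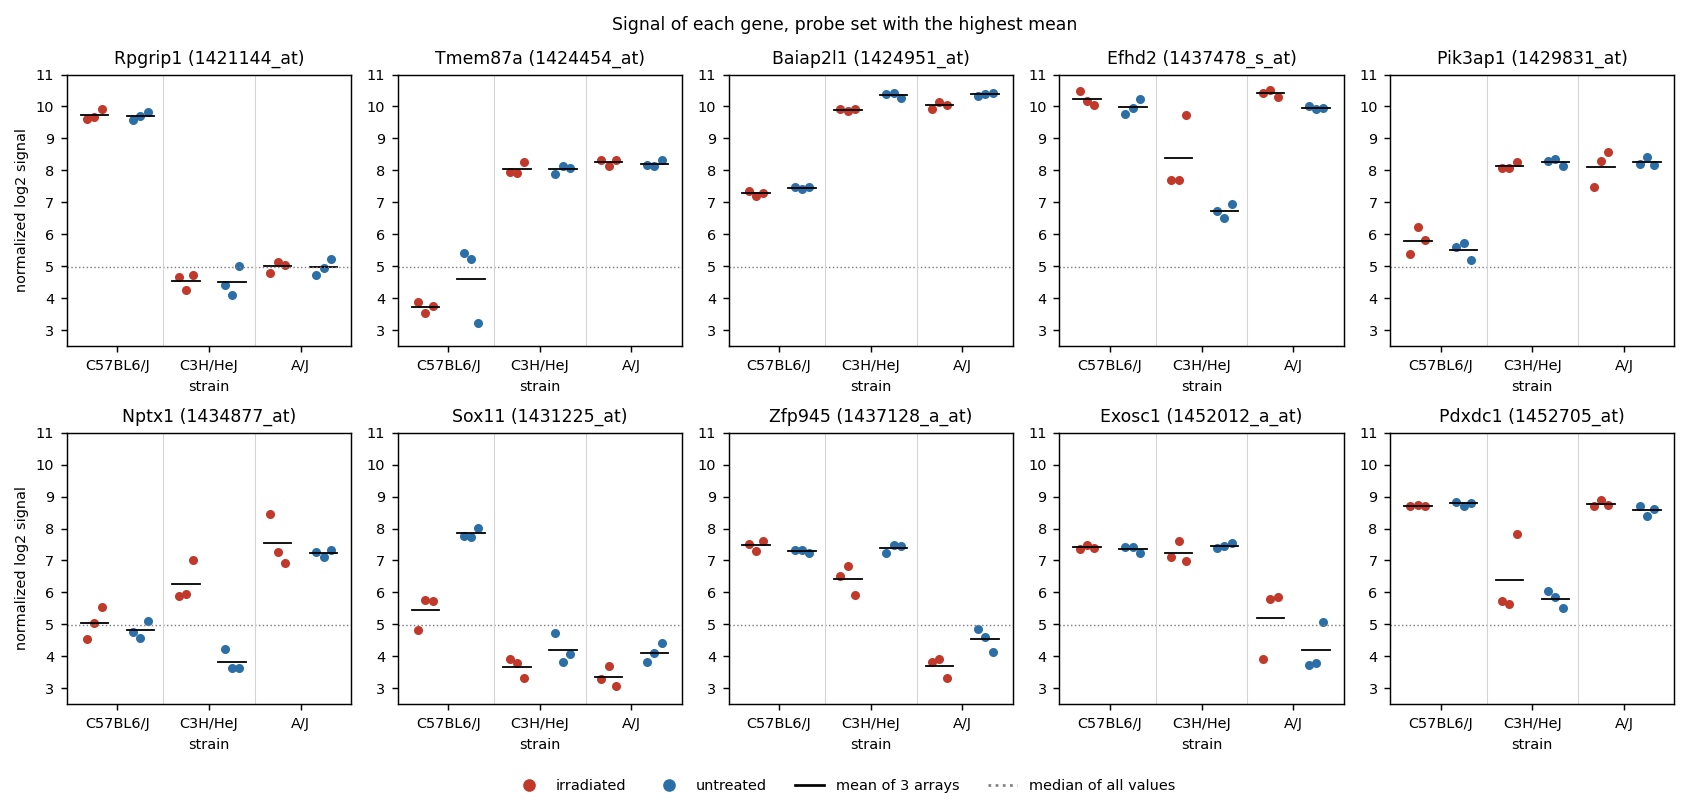
Normalized log2 signal (y axis) of the 10 genes at the probe set with the highest mean, by strain (x axis), in irradiated (red) and untreated (blue) arrays, with each array a point and the mean of 3 arrays a line. Dotted lines mark the median of all values, 4.98. C57BL6/J lies apart for Rpgrip1, Tmem87a, Baiap2l1 and Pik3ap1, and A/J for Zfp945 and Exosc1.

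Sox11, a transcription factor of embryonic progenitors, had its highest mean in untreated C57BL6/J at each of its probe sets. In untreated C57BL6/J arrays the 6 probe sets ran from 5.08 to 8.03, and its mean lay above those of untreated C3H/HeJ and untreated A/J at all 6. The gap to A/J was smallest at 1436790_a_at, where untreated C57BL6/J read 5.64, 5.40 and 5.62 and untreated A/J 5.40, 5.09 and 5.27. The brightest probe set, 1431225_at, read 4.82, 5.77 and 5.72 in irradiated C57BL6/J and 7.78, 7.73 and 8.03 in untreated C57BL6/J. Irradiated and untreated C57BL6/J did not overlap at any of the 6 probe sets, where irradiated minus untreated ran from -2.41 to -1.19. Of these 6, 5 passed the filter on low signals only through the untreated C57BL6/J arrays. A lower level in irradiated C57BL6/J, and a smaller strain difference in irradiated lungs, were thus partly set by the choice of probe sets. Neither is support for a change.

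In irradiated lungs 1431225_at stayed above both other strains, which read 3.91, 3.80 and 3.31 in C3H/HeJ and 3.30, 3.69 and 3.06 in A/J. Irradiated C57BL6/J exceeded irradiated C3H/HeJ by 1.76 ± 0.28 (limma, adjusted p = 4.52e-04) and irradiated A/J by 2.08 ± 0.28 (adjusted p = 5.86e-05). Probe set 1453002_at was called against C3H/HeJ at 1.11 ± 0.33 (adjusted p = 0.0347), a call that 7 of 14 alternatives lost, among them each that left out 1 irradiated C3H/HeJ array (without the third, 1.18 ± 0.38, adjusted p = 0.0572) and that without the third irradiated C57BL6/J array. The other 4 probe sets were called in no pair, with irradiated C57BL6/J within 0.37 of the other strains, and their irradiated means below the median of all values. Squamous epithelium markers averaged 3.46 to 4.33 in irradiated C57BL6/J and 4.55 to 9.06 in untreated C57BL6/J, and skeletal muscle markers 4.95 to 6.81 in irradiated C57BL6/J and 5.04 to 8.82 in untreated C57BL6/J, and their part in the result was not tested.

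**Figure D4:**
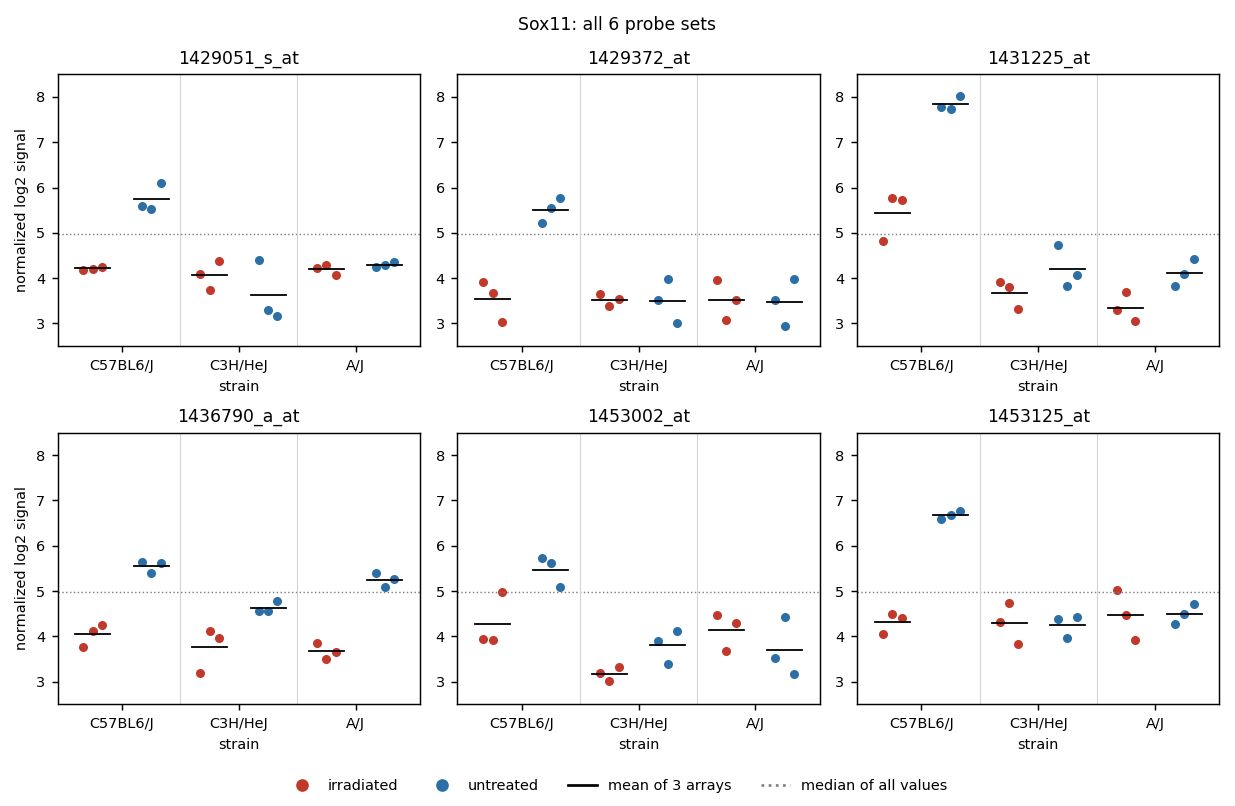
Normalized log2 signal (y axis) of the 6 Sox11 probe sets by strain (x axis) in irradiated (red) and untreated (blue) arrays, with the mean of 3 arrays as a line and the median of all values, 4.98, dotted. Untreated C57BL6/J arrays lie above irradiated C57BL6/J arrays in every panel.

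Zfp945, a zinc finger protein, was low in A/J at 1437128_a_at. It read 7.52, 7.31 and 7.60 in irradiated C57BL6/J, 6.52, 6.84 and 5.91 in irradiated C3H/HeJ and 3.81, 3.93 and 3.33 in irradiated A/J. The A/J arrays lay below all others, with irradiated C57BL6/J minus irradiated A/J at 3.79 ± 0.22 (limma, adjusted p = 1.54e-08) and irradiated C3H/HeJ minus irradiated A/J at 2.73 ± 0.22 (adjusted p = 2.88e-06), or 2.99 ± 0.21 without the third C3H/HeJ array (adjusted p = 3.95e-07). C57BL6/J and C3H/HeJ, at 7.30 and 7.40 in untreated lungs, differed in irradiated lungs by 1.05 ± 0.22 (adjusted p = 0.00416), or 0.79 ± 0.21 without the third C3H/HeJ array (adjusted p = 0.0204), a call lost without scaling. At 1437127_at untreated A/J was the highest group, at 6.97, 6.87 and 6.79, but irradiated A/J read 5.97, 5.31 and 5.26, and no irradiated pair was called. Untreated A/J was thus lowest at one probe set of this gene and highest at the other. Irradiated A/J arrays had the lowest actin ratios, and the part of RNA quality in these values was not tested. The third probe set, 1441792_at, did not pass the filter and read 3.13 to 4.83 in irradiated arrays.

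Among the 5 nearest measured genes on each side of Zfp945 on chromosome 17, 6 of 10 were called higher in irradiated C57BL6/J than in irradiated A/J and 0 lower, and the count was 4 with median centring and 1 without scaling. The largest were Zfp994 at 1.84 ± 0.39 (limma, adjusted p = 0.00255) and Zfp40 at 0.78 ± 0.17 (adjusted p = 0.00309). Near Tmem87a, Mga stood 2.09 ± 0.18 higher in irradiated C57BL6/J than in irradiated A/J (adjusted p = 1.11e-06), against the direction of Tmem87a. Over the 10 members, each in the pair where it differed most, 27 of 100 neighbours were called, against 23.6% of all probe sets between irradiated C57BL6/J and irradiated A/J, the pair of 6 of the members, 15.9% between irradiated C57BL6/J and irradiated C3H/HeJ and 12.0% between irradiated C3H/HeJ and irradiated A/J, the pairs of the rest. Each neighbour was read at its kept probe set with the highest mean, so shares over all probe sets are an unlike background.

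Exosc1, a cap subunit of the RNA exosome that degrades RNA from its 3' end, was low in A/J at 1452012_a_at. It read 7.37, 7.50 and 7.40 in irradiated C57BL6/J, 7.11, 7.60 and 6.98 in irradiated C3H/HeJ and 3.93, 5.79 and 5.85 in irradiated A/J. The irradiated A/J arrays lay below the rest but were spread, and the lowest came from the array with the lowest actin ratio, 0.413. Untreated A/J arrays, with actin ratios of 0.730 to 0.742, were also low at 1452012_a_at, at 3.74 to 5.07. Untreated C57BL6/J read 7.22 to 7.43 there and untreated C3H/HeJ 7.38 to 7.55. The part of RNA quality in the irradiated A/J values was not tested. Irradiated C57BL6/J minus irradiated A/J was 2.23 ± 0.41 (limma, adjusted p = 9.20e-04) and irradiated C3H/HeJ minus irradiated A/J was 2.04 ± 0.41 (adjusted p = 0.00516), a call lost with only the groups compared in the fit (adjusted p = 0.0728). The other probe sets, 1432052_at and 1453359_at, were called in no pair. At 1432052_at irradiated A/J was the highest, at 5.11, 5.04 and 5.01, and the probe set passed the filter only through those arrays. Irradiated C57BL6/J, C3H/HeJ and A/J averaged 5.21, 5.44 and 5.35 at 1453359_at, and untreated arrays of these strains 5.28, 5.76 and 5.52. Of 12 other exosome genes, 2 were called between irradiated C57BL6/J and irradiated A/J, where 23.6% of all probe sets were. They were Exosc9, higher at 0.74 ± 0.18 (limma, adjusted p = 0.00821, and 0.673 without scaling), and Dis3l, lower at -0.67 ± 0.22 (adjusted p = 0.0324). These counts depend on the scaling: without it 0 were higher and 3 lower in this pair, and with median centring 0 were higher and 6 lower. Between irradiated C57BL6/J and irradiated C3H/HeJ 4 were called, 1 higher and 3 lower, where 15.9% of all were. Between irradiated C3H/HeJ and irradiated A/J 1 was called, where 12.0% of all were. Without scaling 0 were called in either of these pairs.

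Pdxdc1, which carries a pyridoxal-dependent decarboxylase domain, set C3H/HeJ apart in opposite directions at different probe sets. At 1419327_at the signal was 8.54, 8.61 and 7.77 in irradiated C3H/HeJ, against 3.50 to 4.48 in irradiated C57BL6/J and 3.81 to 4.50 in irradiated A/J. At 1452705_at it was 5.74, 5.63 and 7.82 in irradiated C3H/HeJ, against 8.70 to 8.74 in irradiated C57BL6/J and 8.70 to 8.90 in irradiated A/J. The same C3H/HeJ lungs were thus highest at 1 probe set and lowest at the other. Untreated C57BL6/J, C3H/HeJ and A/J averaged 3.58, 8.48 and 3.72 at 1419327_at and 8.79, 5.80 and 8.58 at 1452705_at. In the same order of strains, 1428200_a_at averaged 5.81, 4.48 and 5.93 in irradiated and 5.77, 3.85 and 5.95 in untreated arrays. Probe set 1436372_a_at averaged 6.83, 5.71 and 6.70 in irradiated and 6.82, 5.49 and 6.94 in untreated arrays. Irradiated C3H/HeJ minus irradiated A/J was 4.17 ± 0.29 at 1419327_at (limma, adjusted p = 5.06e-07), but -1.45 ± 0.27 at 1428200_a_at, -0.99 ± 0.19 at 1436372_a_at and -2.38 ± 0.38 at 1452705_at (adjusted p from 0.0012 to 0.00348). With only the groups compared in the fit the calls at 1436372_a_at and 1452705_at were lost, at adjusted p = 0.0528 and 0.0633. Without the third C3H/HeJ array the value was 4.44 ± 0.29 at 1419327_at, -1.75 ± 0.25 at 1428200_a_at and -3.09 ± 0.15 at 1452705_at. Irradiated C57BL6/J minus irradiated C3H/HeJ was -4.33 at 1419327_at, 1.33 at 1428200_a_at, 1.12 at 1436372_a_at and 2.32 at 1452705_at (limma, adjusted p from 9.45e-08 to 0.00296). Without the third C3H/HeJ array these differences were -4.60, 1.64, 1.24 and 3.03, and all 4 stayed called. The call at 1436372_a_at was lost without scaling (adjusted p = 0.13). Irradiated C57BL6/J did not differ from irradiated A/J by more than 0.16 at any of the 4 probe sets, and none was called.

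**Figure D5:**
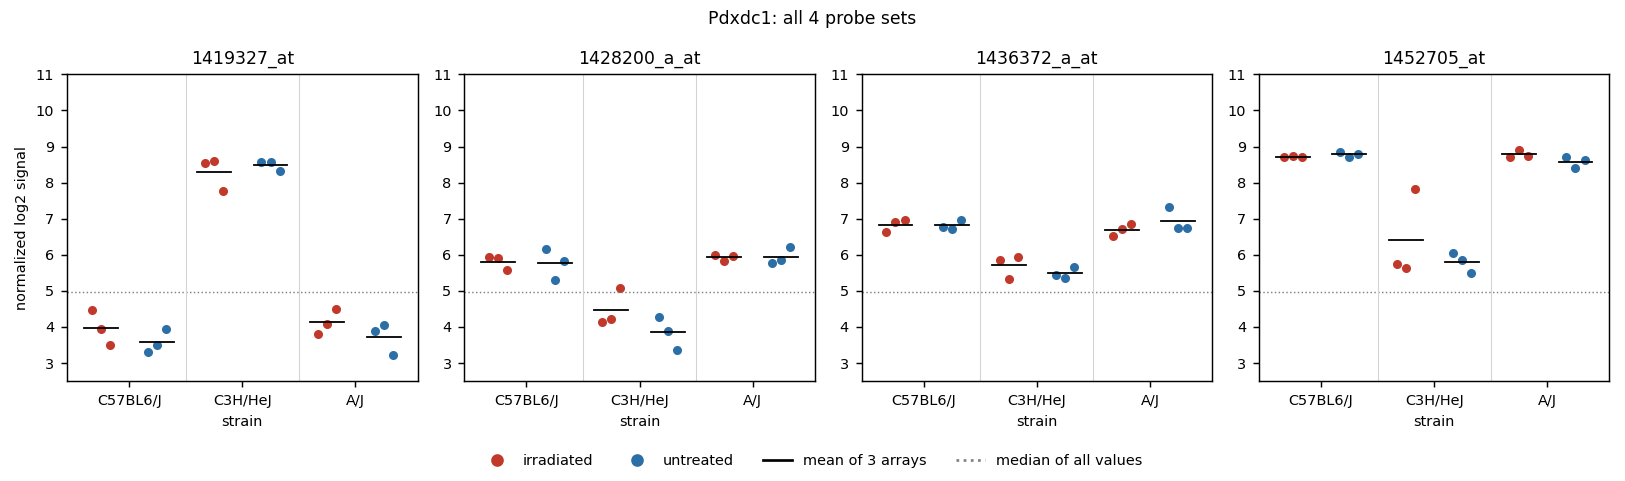
Normalized log2 signal (y axis) of the 4 Pdxdc1 probe sets by strain (x axis) in irradiated (red) and untreated (blue) arrays, with the mean of 3 arrays as a line and the median of all values, 4.98, dotted. C3H/HeJ is highest at 1419327_at and lowest at the other 3 probe sets.

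Set against untreated lungs of the same strain, and as a description only since those arrays chose the genes, irradiated C57BL6/J arrays did not overlap at 9 of the 25 probe sets, 1 higher and 8 lower, where 21.9% of all probe sets did not, 11.0% higher and 10.9% lower. In C3H/HeJ the count was 11, 5 higher and 6 lower, against 36.7% of all, 18.1% higher and 18.6% lower. In A/J it was 7, 2 higher and 5 lower, against 41.6% of all, 20.9% higher and 20.6% lower. Of the 8 lower in irradiated C57BL6/J, 6 were of Sox11, with the limit set by the filter given above, and the rest of Baiap2l1. Without scaling the median of all probe sets was itself higher in irradiated lungs, by 0.56 in C3H/HeJ and 0.46 in A/J, and by 0.06 in C57BL6/J, so that levels in irradiated and untreated lungs of C3H/HeJ and A/J depend on the scaling. The 6 Sox11 differences in C57BL6/J stayed between -2.29 and -1.10 without scaling. Efhd2 at 1431339_a_at was the only probe set above the untreated arrays in all 3 strains, with means higher by 0.22 in C57BL6/J, 0.97 in C3H/HeJ and 0.82 in A/J.

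Genes related to the members, 90 in lists by pathway or family, gave 75 measured genes. Among them is Crip2, which entered the pentraxin list by a shared synonym, is not a pentraxin and was called in no pair. Of the 75 genes, 19 (25.3%) were called between irradiated C57BL6/J and irradiated A/J, where 23.6% of all probe sets were, 18 (24.0%) between irradiated C57BL6/J and irradiated C3H/HeJ, where 15.9% were, and 8 (10.7%) between irradiated C3H/HeJ and irradiated A/J, where 12.0% were. Each gene was read at its kept probe set with the highest mean, so shares over all probe sets are an unlike background. With 1 probe set per gene, 2415, 2241 and 1396 of 12405 genes were called in these pairs. Of the 5 listed relatives of Baiap2l1 and the 5 of Tmem87a with a measured gene, limma called 0 in any pair, where up to 2 and up to 1 had an unadjusted p under 0.05 in a pair. With median centring 1 relative of Tmem87a was called lower in irradiated C57BL6/J than in irradiated A/J. The 11 measured genes listed for Pik3ap1 are of B cell receptor, phosphoinositide 3-kinase and Toll-like receptor signalling. Of these 11, 7 were called between irradiated C57BL6/J and irradiated C3H/HeJ, 2 higher and 5 lower. The largest by size were Bank1, higher at 1.00 ± 0.21 (limma, adjusted p = 0.0035), and Pik3cg, lower at -0.99 ± 0.18 (adjusted p = 0.00126). Tlr4 followed, lower at -0.78 ± 0.21 (adjusted p = 0.0216). Without scaling 2 of the 11 were called, 0 higher and 2 lower, and with median centring 1 was higher and 6 were lower. Efhd1, the paralogue of Efhd2, averaged 4.34 in irradiated C57BL6/J and 6.75 in irradiated C3H/HeJ, a difference of -2.41 ± 0.26 (limma, adjusted p = 1.47e-05), whereas Efhd2 at 1437478_s_at was higher there. Zfp52, another zinc finger gene, averaged 7.12 in irradiated C57BL6/J and 5.11 in irradiated A/J, a difference of 2.00 ± 0.15 (adjusted p = 2.28e-07). Ptx3, a secreted pentraxin like Nptx1, was -1.89 ± 0.24 in irradiated C57BL6/J against irradiated C3H/HeJ (adjusted p = 6.50e-05). Of 8 Sox genes, 3 were lower in irradiated C57BL6/J than in irradiated A/J and 0 higher, Sox18 at -0.96 ± 0.13 (adjusted p = 9.68e-05).

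The genes whose levels were most like each member over the 18 arrays, by Pearson correlation and as a description of arrays that share strains, included H2-K1, a class I antigen-presenting gene, for Rpgrip1 (r = 0.99), and Ap1s3, a vesicle adaptor, for Tmem87a (r = 0.97). Gbp2b and Nnt, a guanylate-binding protein and the mitochondrial transhydrogenase, matched Baiap2l1 (r = 0.99 for both), and Nnt also matched Pik3ap1 (r = 0.97). For Pdxdc1 these were Fam168a (r = 0.99) and Mbd4, a DNA glycosylase (r = 0.98), and for Zfp945 Col4a6 and Stk25 (r = 0.96 for both). For Sox11 they were 2610507I01Rik (r = 0.95) and Golm2 (r = 0.94). The most alike gene was Commd9 for Exosc1 (r = 0.94), Mbd4 for Efhd2 (r = 0.97) and Frem1 for Nptx1 (r = 0.91).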

How the data were processed

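Per the labels, total RNA of 18 mouse lungs was labelled with biotin and read on single-colour arrays. The authors deposited 1 linear signal intensity for each probe set of an array. MAS5 is named in the submitters' processing notes, with no version. The arrays did not share a common target level. Intensities were therefore quantile normalized as log2(signal + 7), where 7 is close to the 25th percentile of all values, 6.7, a scale that understates changes of dim genes. The 64 control probe sets were left out. A probe set was kept if it lay above the median of all values in at least 3 arrays.

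GEO's platform annotation gave the gene symbols, brought to current ones by gene ID where possible: 34958 probe sets named 1 gene, 932 several, and 9211 had no row. All adjusted p-values come from limma 3.58.1, run under R 4.3.3 with lmFit and eBayes, fitted to 6 group means on all 18 arrays with 12 residual degrees of freedom, two-sided, and tested on simulated data. Errors are standard errors. Precision is limited by 3 arrays per group. The members, gene lists and tests were chosen with earlier results of these data known. Members are named with every probe set. Of each list up to 3 called genes, of each member's neighbours up to 2, and the 2 most alike genes could be named, by size or correlation.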

Additional observations from a re-analysis of the deposited data

How the results depend on the processing

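Of the 35 calls on member probe sets, 21 held in every alternative run and 14 were lost in at least 1. Over all 1125 member results and alternatives, 45 lost a call, 13 gained one and 55 changed sign, and all 55 were without a call in both fits. With irradiated C57BL6/J minus irradiated A/J, no scaling gave -0.17 at Sox11 1429051_s_at, -0.06 at Sox11 1453002_at, -0.42 at Pdxdc1 1436372_a_at and -0.19 at Zfp945 1437127_at, median centring gave 0.01 at Pdxdc1 1419327_at and -0.15 at Pdxdc1 1436372_a_at, and array weights gave -0.01 at Sox11 1429051_s_at. With irradiated C57BL6/J minus irradiated C3H/HeJ, no scaling gave -0.04 at Sox11 1453125_at, -0.02 at Exosc1 1432052_at and -0.12 at Exosc1 1452012_a_at, and at Sox11 1429372_at a pseudocount of 1 gave -0.09 and array weights -0.04. With irradiated C3H/HeJ minus irradiated A/J, no scaling gave 0.00 at Sox11 1436790_a_at, -0.12 at Exosc1 1453359_at and -0.24 at Pik3ap1 1429831_at, where median centring gave -0.10 and array weights -0.16, and a pseudocount of 32 gave -0.01 at Sox11 1429372_at. Of the 55 sign changes, 37 came from leaving out 1 array at a time, in 20 results. For C57BL6/J minus A/J the ranges were -0.05 to 0.07 (Sox11 1429051_s_at), -0.19 to 0.29 (Sox11 1429372_at), -0.22 to 0.31 (Sox11 1453002_at), -0.44 to 0.12 (Sox11 1453125_at), -0.41 to 0.08 (Pdxdc1 1419327_at), -0.10 to 0.00 (Pdxdc1 1452705_at) and -0.32 to 0.16 (Exosc1 1453359_at). For C57BL6/J minus C3H/HeJ they were -0.03 to 0.30 (Sox11 1429051_s_at), -0.17 to 0.28 (Sox11 1429372_at), -0.01 to 0.46 (Sox11 1436790_a_at), -0.21 to 0.24 (Sox11 1453125_at), -0.11 to 0.19 (Exosc1 1432052_at) and -0.42 to 0.07 (Exosc1 1453359_at). For C3H/HeJ minus A/J they were -0.28 to 0.05 (Sox11 1429051_s_at), -0.21 to 0.23 (Sox11 1429372_at), -0.08 to 0.38 (Sox11 1436790_a_at), -0.46 to 0.10 (Sox11 1453125_at), -0.20 to 0.27 (Exosc1 1453359_at), -0.25 to 0.02 (Pik3ap1 1421285_at) and -0.28 to 0.26 (Pik3ap1 1429831_at).

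The number of probe sets called moved more. For C57BL6/J against A/J it was 6077, against 10033 with median centring, 2415 with 1 probe set per gene and 3725 with only the groups compared. For C57BL6/J against C3H/HeJ it was 4096, against 1411 without scaling and 2241 with 1 probe set per gene, where 9 member probe sets were called, and it ran from 2629 to 3848 without 1 array, with 2629 without the third irradiated C57BL6/J array and 2668 without the first irradiated C3H/HeJ array. For C3H/HeJ against A/J it was 3075, against 1033 without scaling, 1929 without the filter, 1396 with 1 probe set per gene (5 members), 5193 with array weights and 537 with only the groups compared (3 members), and it ran from 1180 to 3468 without 1 array, with 1934 without the first irradiated A/J array and 1379 and 1180 without the first and the second irradiated C3H/HeJ array. One probe set per gene tests fewer features; for the rest the cause was not tested. Of calls, 53.8% were higher for C57BL6/J against A/J (15.2% without scaling, 25.3% with median centring), 52.8% against C3H/HeJ (31.1% and 33.4%), and 55.9% for C3H/HeJ against A/J (38.3% and 41.8%). The median of all probe sets shifted to -0.56 without scaling and -0.29 with median centring for C57BL6/J minus A/J, to -0.29 and -0.15 for C57BL6/J minus C3H/HeJ, and to -0.25 and -0.11 for C3H/HeJ minus A/J.

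Replicate numbers in the labels did not pair the arrays: 4 of 45 same-numbered pairs correlated over 0.1, from -0.19 to 0.17. A replicate block kept 33 of the 35 calls on members and called 5832 probe sets for C57BL6/J against A/J, 3758 for C57BL6/J against C3H/HeJ and 2785 for C3H/HeJ against A/J. Each group has 3 arrays, and no detection call was used, so levels near the median of all values set a limit on how far dim probe sets can be read.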
